A study of Sus scrofa with 6 samples.

Results

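In the porcine cultures, 154 genes were at least 2-fold higher in the piPSCs than in the PEFs of 1 line and at least 2-fold lower in the piPSCs than in the PEFs of another. For each of the lines 5, 7 and 8, the ratio log2((piPSC + 1)/(PEF + 1)) was taken from the FPKM values (fragments scaled to gene length and to the depth of the library), and a gene was taken where at least 1 ratio was 1 or more and at least 1 was -1 or less. Of 18007 genes in the table, 167 met this. Among them, 11 on chromosomes X and Y were left out and 2 others are not reported here. The remaining 154 were 0.89% of 17299 genes, whereas 17.1% moved in a common direction by at least 2-fold in lines 5, 7 and 8. They comprised 138 protein-coding genes, 6 snRNAs, 5 snoRNAs, 3 miRNAs, 1 misc_RNA and 1 lincRNA, and 130 had a gene symbol. The ratios of these 6 libraries chose the genes, so the levels, ratios and counts below are a description and carry no test.

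PEFs, porcine embryonic fibroblasts, came from the ear tip of embryos at day 90 after the mating of a Large White boar (written Longwhite in the labels) with a Meishan sow. The lines PEF5, PEF7 and PEF8 were turned into piPSC5, piPSC7 and piPSC8 with lentiviral Oct4, Sox2, Klf4 and cMyc under doxycycline control, and the piPSCs were kept on a layer of mouse feeder cells. Poly-A RNA of each PEF line and of its piPSC line was sequenced as 1 library, so there were 3 PEF and 3 piPSC libraries and no replicate within a line. Fragments from the feeder cells cannot be told apart from those of the pig in a table of values per gene. In bulk RNA, fewer cells of a type and less RNA per cell cannot be told apart either.

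The fibroblast marker COL1A1 stood at 869 to 2822 FPKM in the PEFs and at 2.27 to 58.4 FPKM in the piPSCs, COL1A2, THY1 and PDGFRB were likewise lower in all piPSC libraries, and COL3A1 kept 94.2 to 125 FPKM there. Of the markers of pluripotent cells, EPCAM had 0, 0 and 1 fragments, CDH1 had 0, 6 and 7 and SALL4 had 6, 0 and 0 in piPSC5, piPSC7 and piPSC8. SOX2 stood at 3.01, 2.49 and 0.129 FPKM and LIN28B at 2.51, 0.281 and 8.90 FPKM. The study describes all 3 lines as male, but the Y-linked gene DDX3Y had 3439 and 4207 fragments in PEF8 and piPSC8 and 0 in the libraries of lines 5 and 7. Whatever sets line 8 apart and this difference in Y-linked RNA cannot be told apart. Libraries held 11010629 to 17836510 fragments, and the fragments behind each gene were recovered from its FPKM values. Where no fragment was found, a true count of up to 3 remains possible, a limit that covers counting error only.

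The members include several parts of the signalling systems that pluripotent cells depend on. The lists of 14 pluripotency genes, 29 FGF pathway genes and 19 IGF pathway genes held 0 members. Of these lists, 6, 17 and 15 genes reached the mean level needed for the comparison of piPSCs with PEFs. Members were 0.89% of all genes, so lists this short can hold 0 members without differing from other genes. Nothing is read from these counts of 0. WNT proteins act through frizzled receptors and, inside the cell, through the TCF and LEF transcription factors, which either repress or activate their targets. Activins and BMPs, members of the TGF-beta family, are held in check by secreted antagonists that bind them outside the cell. Reprogrammed cultures are known to vary from clone to clone in how far the somatic programme is silenced.

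Line 8 was the line that most often stood apart. Taking the differing line as that across the wider of the 2 gaps between the sorted ratios, it was line 8 in 89 of 154 members (57.8%), line 7 in 50 and line 5 in 15. Line 8 was the lower one in 70 of its 89 members and the higher one in 19. Line 7 was the higher one in 43 of its 50 members and the lower one in 7. Line 5 was the lower one in 11 of its 15 members and the higher one in 4. In 65 members the split was strict, with both other lines at least 2-fold the other way, and 43 of these belonged to line 8. The libraries of line 8 also stood apart over all genes. piPSC8 had the lowest depth and 3902 genes at 0 fragments, against 2763 in piPSC5 and 2714 in piPSC7. Across the 12428 genes with a mean of at least 0.5 FPKM, which are not independent replicates, Pearson's r on the log2(FPKM + 1) scale was 0.921 between piPSC8 and piPSC5 and 0.883 between piPSC8 and piPSC7, against 0.941 between piPSC5 and piPSC7. PEF8 had r of 0.929 with PEF5 and 0.922 with PEF7, against 0.963 between PEF5 and PEF7. The part of depth and of these overall differences in the counts of members was not tested.

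Ratios of at least 2-fold up were found for 115 members in line 7, for 47 in line 5 and for 33 in line 8. Over all 17299 genes the share was 17.8% in line 7, 15.5% in line 5 and 16.9% in line 8. Ratios of at least 2-fold down were found for 111 members in line 8, 44 in line 5 and 24 in line 7, against 17.2%, 13.1% and 12.1% of all genes. The combination of the highest ratio in line 7 and the lowest in line 8 was held by 89 members, as the plot of line 7 against line 8 shows. The choice of members fixes that each has a rise and a fall, so the shares of all genes are printed for reference and nothing is read from them. With a pseudocount of 0.1 in place of 1, 850 genes met the rule, and with 5 there were 29, so the number of members depends on how low values are treated.

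**Figure D1:**
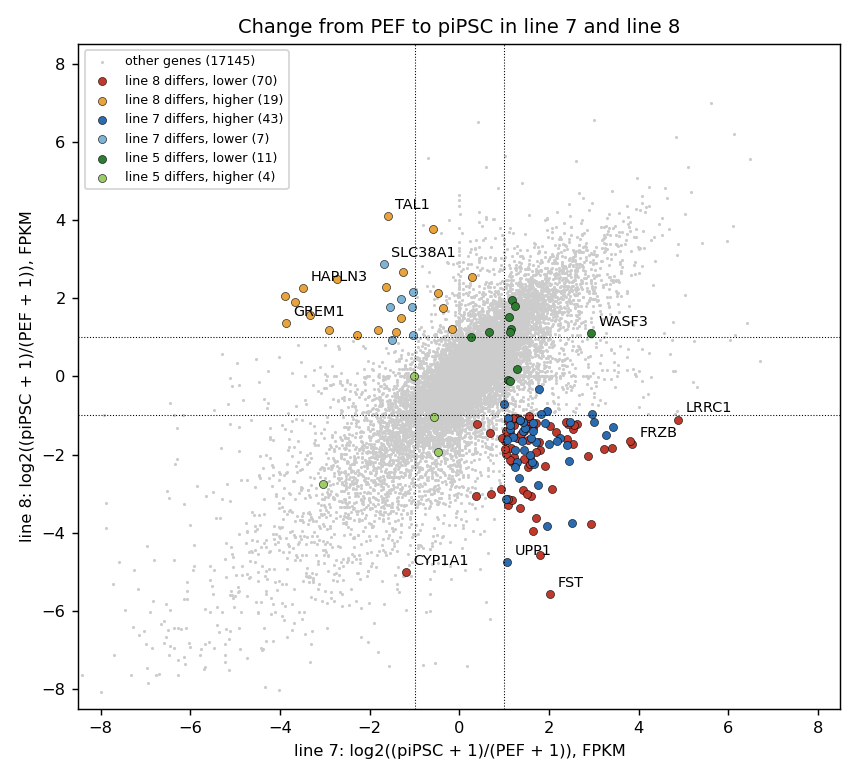
Each point is a gene, with log2((piPSC + 1)/(PEF + 1)) of line 7 on the x axis and of line 8 on the y axis, and dotted lines at 2-fold. Members are coloured by the line that differs, other genes are grey, and 18 genes lie outside the plotted range. The lower right corner, up in line 7 and down in line 8, holds most members, and those in which line 8 was the higher one lie at the top and upper left.

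The opposite movement lay mostly between the piPSC libraries. The distance between the highest and the lowest ratio of a member equals the difference between the piPSC libraries of those lines plus the reversed difference between their PEF libraries. The piPSC difference made up more than 50% of this distance in 120 of 154 members (77.9%), and its median share was 71.3%. The range over the 3 libraries of a state, on the log2(FPKM + 1) scale, had a median of 2.58 in the piPSCs and 1.25 in the PEFs. Over the 11979 genes with a mean of at least 0.5 FPKM, these medians were 0.511 and 0.496. Members were moderately expressed, with a median of the mean FPKM of 4.37 against 7.66 over those genes, and from 0.363 to 86.9.

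In 34 members, the PEF libraries made up the larger share. PEF8 was the highest of all 6 libraries in 26 of these 34, among them HOXC6, DDX58, PRKAR2B and CYP1A1, whose levels are given below. In 17 members the piPSC share went over 100%, so the PEF libraries differed in the direction that narrowed the split. AUTS2, for instance, stood at 9.31, 17.97 and 3.27 FPKM in the PEFs and 32.4, 29.6 and 0.555 FPKM in the piPSCs.

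**Figure D2:**
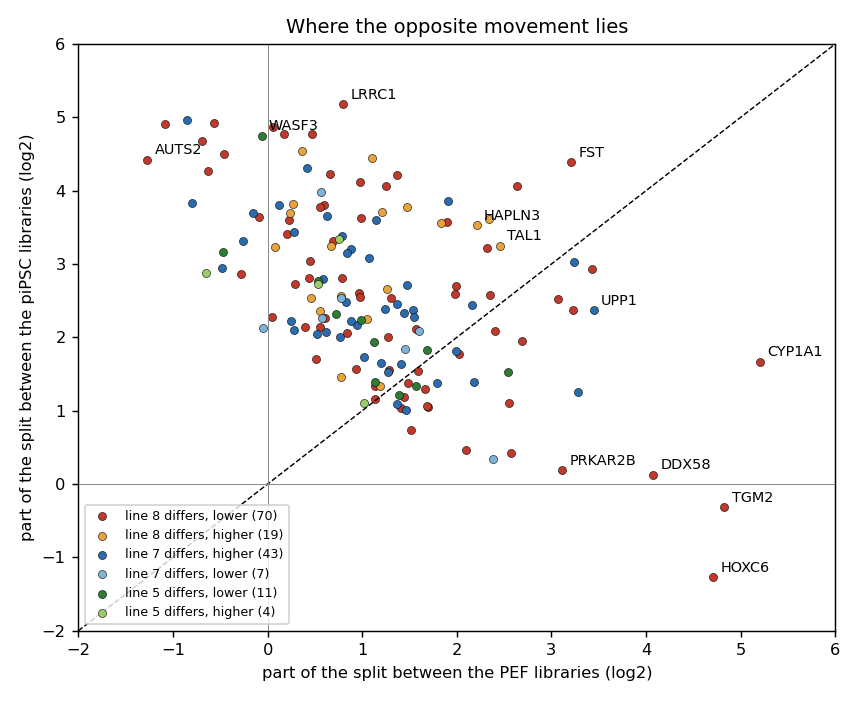
For each of the 154 members, the y axis gives the log2 difference between the piPSC libraries of the lines with the highest and lowest ratio, and the x axis the reversed difference between their PEF libraries. Points above the dashed line of equality, 120 members, owe the larger part to the piPSCs, and HOXC6 and TGM2 at the lower right lie below 0 on the y axis.

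The class in which line 8 was lower, with 70 members, was at the median high in piPSC5 and piPSC7 and nearly lost in piPSC8. Its median level was 2.40, 1.92 and 5.54 FPKM in PEF5, PEF7 and PEF8 and 6.87, 10.8 and 0.595 FPKM in piPSC5, piPSC7 and piPSC8. PEF8 was above both other PEF libraries in 57 of the 70, and piPSC8 was the lowest of all 6 libraries in 47. The class in which line 8 was higher, with 19 members, showed the mirror image. Its median was 5.36, 7.29 and 3.11 FPKM in the PEFs and 1.11, 0.848 and 13.9 FPKM in the piPSCs of lines 5, 7 and 8. All 19 lay on the piPSC side, piPSC8 was the highest library in 16, and PEF8 was below both other PEFs in 15. The class in which line 7 was higher, with 43 members, had medians of 3.15, 1.67 and 4.35 FPKM in the PEFs and 0.671, 7.87 and 0.290 FPKM in the piPSCs. The median ratios were -0.77, 1.62 and -1.57 in lines 5, 7 and 8, and piPSC7 was the highest of all libraries in 33 of the 43.

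**Figure D3:**
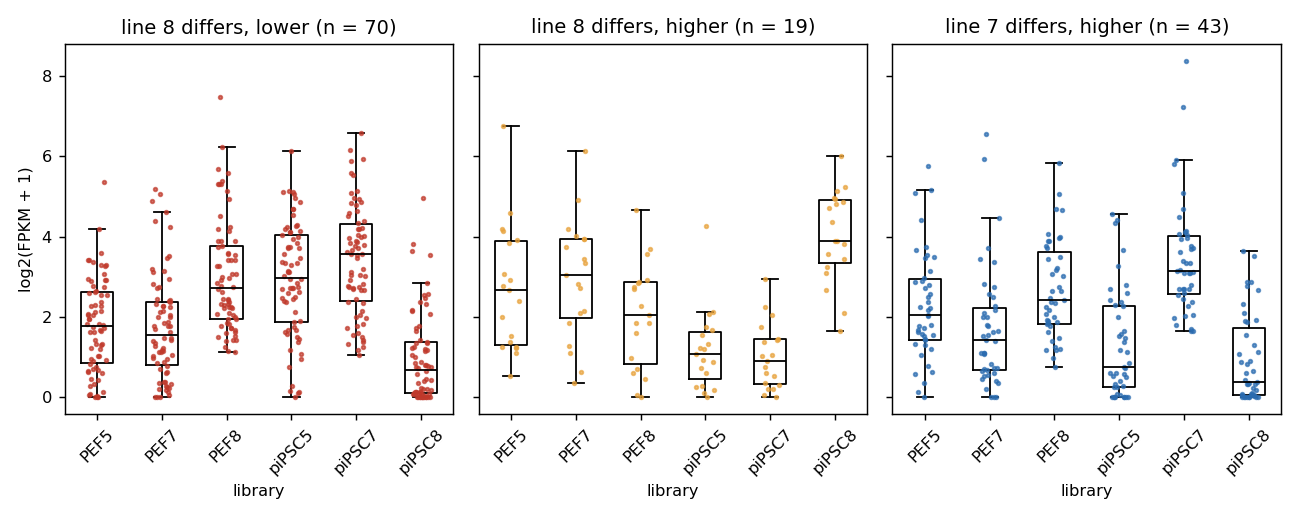
Levels as log2(FPKM + 1) on the y axis in the 6 libraries for the 3 classes with most members. Dots are genes, boxes span the quartiles with the median as a line, and whiskers leave out outlying genes. In the left panel, piPSC8 is the low library, in the middle panel it is the high one, and in the right panel piPSC7 is.

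In what follows, levels are FPKM in the order of lines 5, 7 and 8, and the 3 numbers called ratios are log2((piPSC + 1)/(PEF + 1)) in the same order. A gene is said to have risen or fallen in a line where its ratio there was at least 2-fold, measured in 1 library of each state, with no test. Members were also grouped by what their products do. These groups, and the genes named in them beyond the rule given with the processing, were chosen after their values were seen. For the counts by gene list below, members were 0.89% of all 17299 genes. For those by group, line 8 was the lower one in 45.5% of all members and the higher one in 12.3%. Nothing is read from these counts.

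Extracellular signals, secreted or at the cell surface, and their inhibitors made up 7 members, and line 8 was the lower one in 6 of them. FST (ENSSSCG00000016892, chromosome 16 from 32806341 to 32811382 of Sscrofa11.1) encodes follistatin, which binds and neutralises activin. It stood at 3.89, 4.15 and 46.7 FPKM in the PEFs and 7.69, 19.9 and 0 FPKM in the piPSCs, and its ratios of 0.83, 2.02 and -5.58 spanned 7.60, the widest of all members. PEF8 had 734 fragments and piPSC8 had 0, which makes the level of piPSC8 at least 178-fold lower if 3 fragments are taken as the limit for a count of 0. In lines 5 and 7 the same gene was higher in the piPSCs than in the PEFs.

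GREM1 (ENSSSCG00000033657, chromosome 1 from 136617105 to 136629292) encodes gremlin 1, an antagonist of BMPs, and had ratios of the opposite sign to FST in all 3 lines. Its levels were 107, 68.9 and 24.3 FPKM in the PEFs and 18.2, 3.76 and 64.0 FPKM in the piPSCs, with ratios of -2.49, -3.88 and 1.36. PEF5 and PEF7 were its high libraries among the fibroblasts, and piPSC8 among the piPSCs. The upstream windows of this opposed pair are shown because both are rich in CG dinucleotides, marked by capitals. They are the 300 bases before the outermost start in the table or in the RefSeq annotation, on the plus strand of Sscrofa11.1 (RefSeq), chr16:32806041-32806340 for FST with 49 CG and chr1:136616741-136617040 for GREM1 with 25 CG.
FST: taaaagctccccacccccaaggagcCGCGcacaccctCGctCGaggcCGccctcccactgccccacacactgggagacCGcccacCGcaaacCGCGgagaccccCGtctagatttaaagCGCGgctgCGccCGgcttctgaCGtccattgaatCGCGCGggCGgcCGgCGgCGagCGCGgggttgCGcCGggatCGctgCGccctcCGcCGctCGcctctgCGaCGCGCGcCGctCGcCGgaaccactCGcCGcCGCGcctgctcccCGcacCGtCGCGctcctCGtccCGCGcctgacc
GREM1: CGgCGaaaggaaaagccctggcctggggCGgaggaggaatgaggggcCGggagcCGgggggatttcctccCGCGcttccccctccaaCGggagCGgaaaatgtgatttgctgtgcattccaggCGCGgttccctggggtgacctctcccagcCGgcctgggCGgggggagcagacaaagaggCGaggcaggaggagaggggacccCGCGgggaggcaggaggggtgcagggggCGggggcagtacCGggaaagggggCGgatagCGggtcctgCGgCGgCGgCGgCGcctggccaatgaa

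The upstream 300 bases of the protein-coding members as a whole, counted from the start given in the table, held a median of 12.5 CG dinucleotides and 58.0% G and C. Over 11559 protein-coding genes with a mean of at least 0.5 FPKM, the medians were 17 and 59.3%. Counted from that same start, FST held 49 CG and GREM1 held 33, above the median of both groups. These genes were picked for windows rich in CG, so nothing is read from this about the movement of their RNA.

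NRG1, a ligand of the ErbB receptors, followed FST at 2.52, 1.39 and 13.8 FPKM in the PEFs and 9.10, 17.2 and 0.0918 FPKM in the piPSCs. Its ratios were 1.52, 2.93 and -3.76, and only 4 fragments were found in piPSC8. HGF, the ligand of the receptor MET, stood at 2.48, 2.41 and 12.7 FPKM in the PEFs and 8.86, 3.41 and 0.635 FPKM in the piPSCs. CD70, a ligand of the TNF family, stood at 5.26, 6.69 and 17.3 FPKM in the PEFs and 17.2, 24.0 and 0.496 FPKM in the piPSCs, and NTN4, a netrin, at 3.84, 8.08 and 6.84 FPKM in the PEFs and 16.3, 19.4 and 0.730 FPKM in the piPSCs. For all of these, piPSC8 was the lowest of the 6 libraries.

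The WNT list of 53 genes held 4 members (7.55%, against 0.89% of all genes), a count that was not tested. They were FRZB, FZD6, TCF7L1 and LEF1, of which the first 3 fell in line 8 and the last rose there. FRZB, a secreted protein that binds WNTs and limits their action, stood at 0.258, 0.276 and 2.30 FPKM in the PEFs and 2.71, 17.5 and 0 FPKM in the piPSCs, with 0 fragments in piPSC8 against 106 in PEF8. This makes piPSC8 at least 25.7-fold lower than PEF8, while piPSC7 was the highest library. FZD6, a WNT receptor, was even across the PEFs and fell to 2 fragments in piPSC8, with levels of 4.80, 4.01 and 3.71 FPKM in the PEFs and 9.39, 12.6 and 0.0850 FPKM in the piPSCs.

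TCF7L1 and LEF1, both of the TCF and LEF family, had ratios of opposite sign in lines 7 and 8. TCF7L1, known mainly as a repressor of WNT targets, stood at 5.69, 7.83 and 4.46 FPKM in the PEFs and 13.2, 45.3 and 0.805 FPKM in the piPSCs, with ratios of 1.09, 2.39 and -1.60. LEF1, which activates targets together with beta-catenin, stood at 4.53, 7.12 and 1.98 FPKM in the PEFs and 6.49, 2.28 and 10.8 FPKM in the piPSCs, with ratios of 0.44, -1.31 and 1.99. The order of the piPSC libraries was piPSC7, piPSC5, piPSC8 from high to low for TCF7L1 and the reverse for LEF1. The 300 bases before the start of LEF1, chr8:113824211-113824510 on the plus strand of Sscrofa11.1 (RefSeq), are shown because they hold the letters CTTTGA, the core of the sequence that TCF and LEF proteins bind, on either strand. The matches, in capitals, begin 237 and 172 bases before the start.
LEF1: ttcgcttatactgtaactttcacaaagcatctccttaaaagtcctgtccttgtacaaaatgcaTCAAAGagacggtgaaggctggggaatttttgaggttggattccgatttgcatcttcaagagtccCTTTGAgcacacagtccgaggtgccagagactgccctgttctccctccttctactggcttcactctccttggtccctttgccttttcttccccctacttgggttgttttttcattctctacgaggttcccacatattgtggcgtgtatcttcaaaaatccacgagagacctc

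CTTTGA on either strand was found in the upstream 300 bases of 10.1% of the protein-coding members and of 13.0% of the expressed protein-coding genes. A match is a description of letters and not of a bound site.

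HEY1, a repressor that acts downstream of Notch, was the only member of the Notch list of 19 genes (5.26%, against 0.89% of all genes). It was even across the PEFs and split in the piPSCs, with levels of 1.51, 1.27 and 1.66 FPKM in the PEFs and 5.10, 12.9 and 0.151 FPKM in the piPSCs and ratios of 1.28, 2.62 and -1.21. DTX4, a gene of the deltex family that regulates Notch signalling, was likewise high in piPSC5 and piPSC7 and low in piPSC8, with 4 fragments there, but was higher in PEF8 than in the other PEFs, at 0.353, 0.303 and 1.68 FPKM in the PEFs and 12.1, 6.59 and 0.0557 FPKM in the piPSCs. The 2 members of the TGF-beta and BMP list of 49 genes (4.08%, against 0.89% of all genes) were FST and GREM1, given above.

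**Figure D4:**
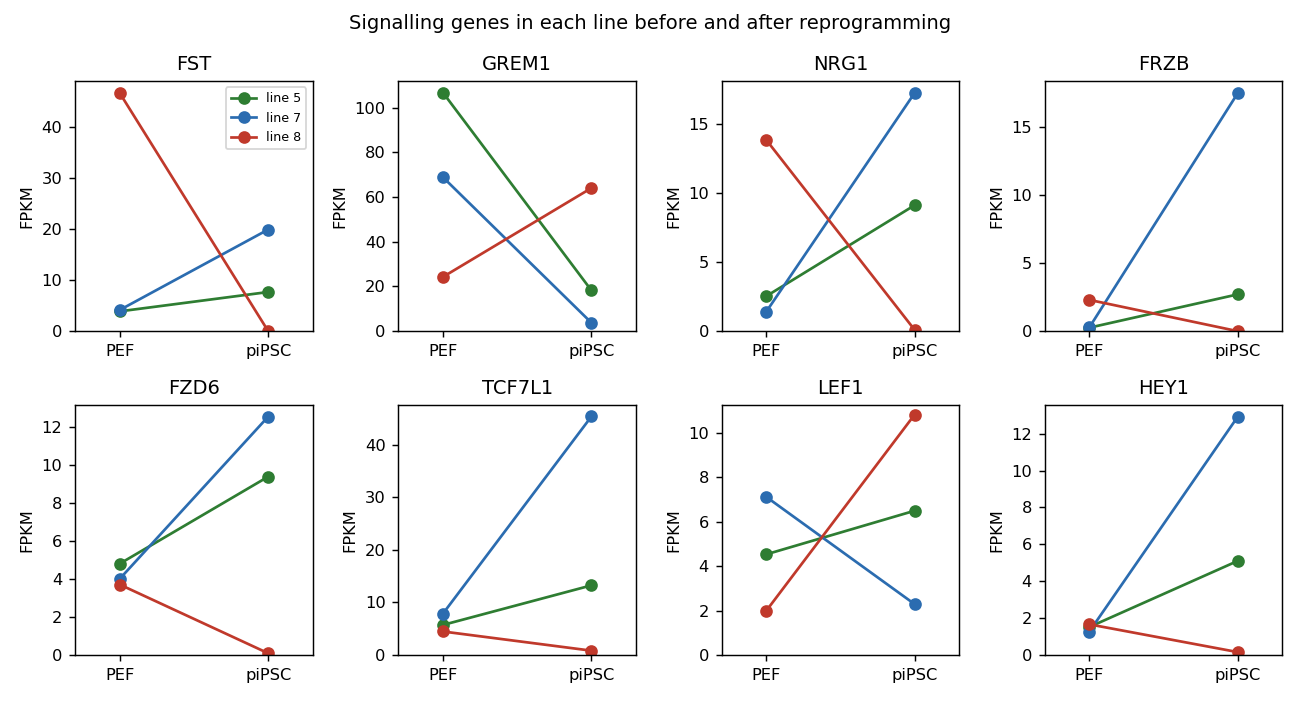
FPKM on the y axis before (PEF) and after (piPSC) reprogramming for 8 signalling genes, with 1 coloured line for each culture line and 1 library at each point. In FST, NRG1, FRZB, FZD6, TCF7L1 and HEY1, line 8 ends near 0 while lines 5 and 7 end higher than they began, and in GREM1 and LEF1 line 8 ends highest.

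For the pathways as a whole, the piPSCs were compared with the PEFs as groups. Limma on log2(FPKM + 1), with calls made at a 2-fold change and a Benjamini-Hochberg adjusted p under 0.05, gave 3 higher and 15 lower among 37 tested genes of the WNT list. It gave 2 higher and 16 lower among 35 of the TGF-beta and BMP list, and 0 higher and 4 lower among 13 of the Notch list, of which 1 was called with the line as a block. The median log2 fold change was -0.86 for WNT, -1.31 for TGF-beta and BMP and -0.33 for Notch genes, against 0.20 over all 12428 genes tested. Of all genes tested, 36.8% were called, 20.2% as higher and 16.7% as lower. This balance depends on scale, with 2505 higher and 2070 lower as deposited and 1879 higher and 2511 lower once the libraries were rescaled to the median ratio over genes. With that rescaling, the lists gave 3 higher and 16 lower for WNT, 2 higher and 18 lower for TGF-beta and BMP and 0 higher and 4 lower for Notch. Of the 154 members, 151 were tested and 0 were called. At an unadjusted p under 0.05 there were also 0, and the smallest adjusted p was 0.0939. With the line as a replicate block, 0 were called, 0 had an unadjusted p under 0.05, and the smallest adjusted p was 0.163. Without piPSC8, 33 members were called, without piPSC7 there were 12, and without any other library there were 1 to 3. Genes that move in opposite directions between the lines have a wide spread by choice, so nothing is read from this count.

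The 9 transcription factors and cofactors among the members included 5 in which line 8 was the lower one, against 45.5% of all members. HOXC6, which patterns the body axis, had its split in the fibroblasts, at 0.0792, 0.507 and 38.4 FPKM in the PEFs and 0.938, 4.16 and 11.4 FPKM in the piPSCs. PEF8 had 412 fragments of it, PEF5 had 1 and PEF7 had 6. In the piPSCs the order was the same as in the PEFs, and the ratios were 0.84, 1.77 and -1.67, with lines 5 and 7 starting from almost nothing. It was the only member of the 34 HOX genes of the table (2.94%, against 0.89% of all genes). IRX5, a homeobox factor, went the common way at 8.78, 10.4 and 4.36 FPKM in the PEFs and 24.9, 32.9 and 0.130 FPKM in the piPSCs, with a clear loss in piPSC8 alone.

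TAL1, a regulator of blood cell formation, had the highest ratio of the members in line 8 on the log2(FPKM + 1) scale, on which low levels count for less. It stood at 1.36, 7.29 and 0.513 FPKM in the PEFs and 0.516, 1.74 and 25.1 FPKM in the piPSCs, with 320 fragments in piPSC8 and ratios of -0.64, -1.59 and 4.11. The summed level of the 13 blood and immune cell genes was 16.1 to 35.0 FPKM in the PEFs, 4.57 and 5.58 in piPSC5 and piPSC7 and 29.4 in piPSC8, where TAL1 itself made up most of the sum. Without TAL1, the sum was 14.7 to 27.7 FPKM in the PEFs and 3.84 to 4.26 FPKM in the piPSCs. GATA1 had 0 to 2 fragments and CD34 had 0 to 2 in all libraries, whereas SPI1 had 39 to 76 in the PEFs and 26, 41 and 15 in the piPSCs. PLPPR4, a membrane protein of the lipid phosphatase family named here after its values were seen, stood at 0.0283 FPKM with 3 fragments in PEF8. In piPSC8 it stood at 13.1 FPKM with 1005 fragments. Its fold change in line 8 without the added 1 was thus larger than that of TAL1, though it rests on 3 fragments in PEF8. Whether other cells had a part in the level of TAL1 was not tested.

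FOSB, an immediate early gene that responds to growth signals and handling, had the highest mean level of the members. It stood at 53.1, 93.3 and 12.2 FPKM in the PEFs and 22.6, 334 and 5.76 FPKM in the piPSCs, and piPSC7 was far above all other libraries. PEF8 and piPSC8 were the lowest in their state.

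Receptors and channels at the cell surface were 10 members, with line 8 lower in 6 and higher in 3. NRP2, a co-receptor for semaphorins and VEGF, stood at 23.0, 12.4 and 5.72 FPKM in the PEFs and 2.195, 1.02 and 36.5 FPKM in the piPSCs. IL11RA and CNTFR, the ligand-binding subunits for interleukin 11 and ciliary neurotrophic factor, lie on chromosome 10 with 23.6 kb between them and moved in opposite directions. IL11RA stood at 5.36, 5.55 and 3.77 FPKM in the PEFs and 1.27, 0.848 and 9.78 FPKM in the piPSCs. CNTFR stood at 0, 0.0273 and 1.87 FPKM in the PEFs and 0.0910, 1.80 and 0.0829 FPKM in the piPSCs. The first rose in line 8 and fell in lines 5 and 7, whereas the second was seen mainly in PEF8 and piPSC7. NPY1R, a receptor of neuropeptide Y, was listed at 0 in piPSC8, with levels of 0.565, 0.792 and 7.01 FPKM in the PEFs and 4.98, 1.91 and 0 FPKM in the piPSCs.

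Below the receptors, 5 members belong to G protein, cyclic nucleotide and receptor kinase signalling. GNA12, the alpha subunit G12, was well expressed everywhere but in piPSC8, at 40.5, 32.5 and 21.7 FPKM in the PEFs and 69.3, 70.3 and 1.34 FPKM in the piPSCs. GNAZ, another alpha subunit, stood at 7.45, 4.34 and 5.14 FPKM in the PEFs and 16.4, 27.4 and 1.66 FPKM in the piPSCs. GRK3, a kinase that desensitises receptors, stood at 5.96, 3.52 and 5.74 FPKM in the PEFs and 0.397, 16.6 and 2.68 FPKM in the piPSCs and was the highest in piPSC7. GUCY1B3, the beta subunit of the soluble guanylate cyclase, had the mirror pattern at 17.2, 14.2 and 10.8 FPKM in the PEFs and 3.20, 0.501 and 34.1 FPKM in the piPSCs. PRKAR2B, a regulatory subunit of protein kinase A, differed mainly in the fibroblasts, at 9.69, 7.67 and 74.0 FPKM in the PEFs and 33.8, 34.5 and 30.1 FPKM in the piPSCs, and its piPSC levels lay within 0.19 of each other on the log2(FPKM + 1) scale.

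Metabolic enzymes and transporters were 11 members and were spread over all 3 differing lines. CYP1A1, a cytochrome P450 induced through the aryl hydrocarbon receptor, differed widely across the PEFs, at 3.84, 35.5 and 178 FPKM in the PEFs and 16.7, 15.04 and 4.57 FPKM in the piPSCs. Its ratios were 1.87, -1.19 and -5.00, so that line 5 rose while lines 7 and 8 fell, and its piPSC levels were closer together than those of the PEFs. ALDH2, the mitochondrial aldehyde dehydrogenase, stood at 11.103, 28.5 and 18.00 FPKM in the PEFs and 33.4, 94.8 and 3.97 FPKM in the piPSCs. It rose in lines 5 and 7 and fell in line 8.

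UPP1, a uridine phosphorylase, stood at 10.6, 2.07 and 32.5 FPKM in the PEFs and 0.177, 5.44 and 0.242 FPKM in the piPSCs, with 7 fragments in each of piPSC5 and piPSC8 and 170 in piPSC7. DDAH1, which breaks down methylated arginines, was low in piPSC5 only, at 46.5, 22.9 and 21.6 FPKM in the PEFs and 9.69, 49.4 and 20.2 FPKM in the piPSCs. SLC38A1, a glutamine transporter, had the widest strict split among genes lower in line 7, at 8.17, 5.57 and 3.43 FPKM in the PEFs and 20.4, 1.04 and 31.2 FPKM in the piPSCs with ratios of 1.22, -1.69 and 2.86. CA12, a membrane carbonic anhydrase, fell in lines 5 and 7 and rose in line 8, at 14.1, 9.18 and 6.33 FPKM in the PEFs and 3.37, 3.13 and 19.7 FPKM in the piPSCs. ABCA1, the cholesterol exporter, stood at 8.75, 3.09 and 11.13 FPKM in the PEFs and 18.5, 13.3 and 2.29 FPKM in the piPSCs. UCP2, a mitochondrial carrier, rose from low levels in lines 5 and 7, at 0.331, 0.132 and 3.22 FPKM in the PEFs and 5.44, 14.96 and 0.335 FPKM in the piPSCs.

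The matrix and cell surface proteolysis genes, 6 members, held 3 of those kept or raised in line 8. HAPLN3, which links hyaluronan to proteoglycans, stood at 16.5, 28.9 and 5.46 FPKM in the PEFs and 1.11, 1.67 and 29.8 FPKM in the piPSCs, with ratios of -3.05, -3.49 and 2.25. PCSK6, a protease that activates secreted precursors, stood at 5.76, 15.2 and 6.50 FPKM in the PEFs and 1.91, 0.277 and 26.9 FPKM in the piPSCs. FAP, the fibroblast activation protein and a member of the mesenchymal list of 20 genes, stood at 1.88, 6.05 and 3.11 FPKM in the PEFs and 0.207, 0.440 and 7.51 FPKM in the piPSCs. In each of these 3, piPSC8 was the highest of the 6 libraries, while the fibroblast markers COL1A1, COL1A2, THY1 and PDGFRB were lowest there. COL3A1 was lower in all piPSCs than in the PEFs but highest among them in piPSC8, at 94.2, 109 and 125 FPKM.

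PAMR1, a secreted protein with a serine protease-like domain, differed in line 7 at 3.02, 2.98 and 13.9 FPKM in the PEFs and 0.487, 14.3 and 0.0532 FPKM in the piPSCs. MME, the membrane peptidase neprilysin, had 0 fragments in PEF5 and 793 in piPSC5, at least a 313-fold higher level, and stood at 0, 0.187 and 3.998 FPKM in the PEFs and 14.98, 2.03 and 0.723 FPKM in the piPSCs. SERPINB1, an inhibitor of neutrophil proteases, was almost absent from piPSC8 at 6.61, 5.58 and 8.63 FPKM in the PEFs and 5.61, 13.7 and 0.0709 FPKM in the piPSCs.

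Among cytoskeletal genes, WASF3, which drives actin branching at the cell edge, was the widest split of line 5. It stood at 7.003, 7.35 and 5.12 FPKM in the PEFs and 1.38, 62.9 and 12.2 FPKM in the piPSCs and fell in line 5 but rose in lines 7 and 8. WIPF1, a partner of WASP proteins, stood at 13.3, 14.5 and 11.9 FPKM in the PEFs and 1.495, 1.05 and 28.0 FPKM in the piPSCs, so that it fell in lines 5 and 7 and rose in line 8. STMN2 and TUBB3, a stathmin and a tubulin of neurons, were the 2 members of the neuronal list of 21 genes (9.52%, against 0.89% of all genes). STMN2 stood at 0.0245, 0 and 8.60 FPKM in the PEFs and 5.63, 1.65 and 0.278 FPKM in the piPSCs. TUBB3 stood at 20.2, 9.79 and 24.6 FPKM in the PEFs and 20.3, 58.8 and 10.5 FPKM in the piPSCs. Levels of STMN2 were high in PEF8 and piPSC5, those of TUBB3 in piPSC7.

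The summed level of the neuronal list was 195 to 289 FPKM in the PEFs and 183, 404 and 199.5 FPKM in the piPSCs, and without STMN2 and TUBB3 it was 175 to 256 FPKM in the PEFs and 157, 344 and 189 FPKM in the piPSCs. Of single markers of neurons, ELAVL3 had at most 4 fragments and DCX at most 9 in any library, whereas ELAVL4 had 20 to 75 in the PEFs and 176, 53 and 67 in the piPSCs, and SNAP25 had 6 to 30 and 3, 24 and 21. TNNT1, a troponin of slow skeletal muscle, stood at 2.48, 0.775 and 15.7 FPKM in the PEFs and 1.25, 9.12 and 0.245 FPKM in the piPSCs. The summed level of the 17 skeletal muscle genes was 18.95 FPKM in PEF8 and 25.1 in piPSC7, and 1.66 to 4.04 in the other libraries. TNNT1 made up most of the sum in PEF8, and without it the other 16 genes summed to 3.25 FPKM in PEF8, 15.9 in piPSC7, 3.79 in piPSC8 and 0.890 to 1.05 in the other libraries. MYOD1 had 1 fragment in PEF8 and 0 elsewhere, MYH3 had 1 to 4 in all libraries, and DES had 748 in piPSC7 and 3 to 123 elsewhere. Whether muscle or nerve-like cells had a part in these levels was not tested.

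Innate immune genes were 6 members. DDX58, which encodes the RNA sensor RIG-I, was high in PEF8 and lowest in PEF7, at 5.07, 2.06 and 50.6 FPKM in the PEFs and 4.58, 5.44 and 4.88 FPKM in the piPSCs. PEF5 and the piPSCs lay between these at 4.58 to 5.44 FPKM, and the rise in line 7 rests on the low level of PEF7. It was the only member of 28 interferon response genes (3.57%, against 0.89% of all genes). NOD1, a sensor of bacterial cell wall fragments, was lowest in piPSC5 at 2.76, 2.16 and 1.28 FPKM in the PEFs and 0.577, 6.43 and 6.86 FPKM in the piPSCs. PSMB8, a subunit of the immunoproteasome, was also lowest in piPSC5, at 7.87, 4.004 and 11.3 FPKM in the PEFs and 1.78, 5.01 and 23.8 FPKM in the piPSCs. SYK, a kinase of immune receptors, was lost in piPSC8 at 1.04, 1.68 and 9.71 FPKM in the PEFs and 1.74, 5.80 and 0.0445 FPKM in the piPSCs.

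Further members named for their wide split, their level or a list have varied roles. LRRC1, a scaffold protein, had the highest ratio of any member on the log2(FPKM + 1) scale, in line 7, at 0.769, 0.630 and 1.83 FPKM in the PEFs and 10.9, 46.8 and 0.319 FPKM in the piPSCs with ratios of 2.75, 4.87 and -1.10. PRICKLE2, a planar polarity protein, stood at 2.32, 2.38 and 8.37 FPKM in the PEFs and 0.326, 5.98 and 0.0636 FPKM in the piPSCs. CEND1, linked to the exit of neuronal precursors from the cell cycle, stood at 17.3, 19.9 and 29.8 FPKM in the PEFs and 34.3, 60.5 and 13.0 FPKM in the piPSCs. Levels of CEND1 were highest in piPSC7 and lowest in piPSC8.

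H2AFY2, a macroH2A histone variant, was seen almost only in piPSC7 among the piPSCs, at 1.06, 0.150 and 0.944 FPKM in the PEFs and 0, 7.87 and 0 FPKM in the piPSCs. INPP5F, an inositol phosphatase, stood at 4.65, 2.96 and 9.89 FPKM in the PEFs and 4.14, 7.59 and 3.28 FPKM in the piPSCs, and the zinc finger gene ZNF25 at 1.46, 1.34 and 2.06 FPKM in the PEFs and 2.67, 4.09 and 0.152 FPKM in the piPSCs. For both of these, piPSC8 was the lowest of the piPSC libraries.

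**Figure D5:**
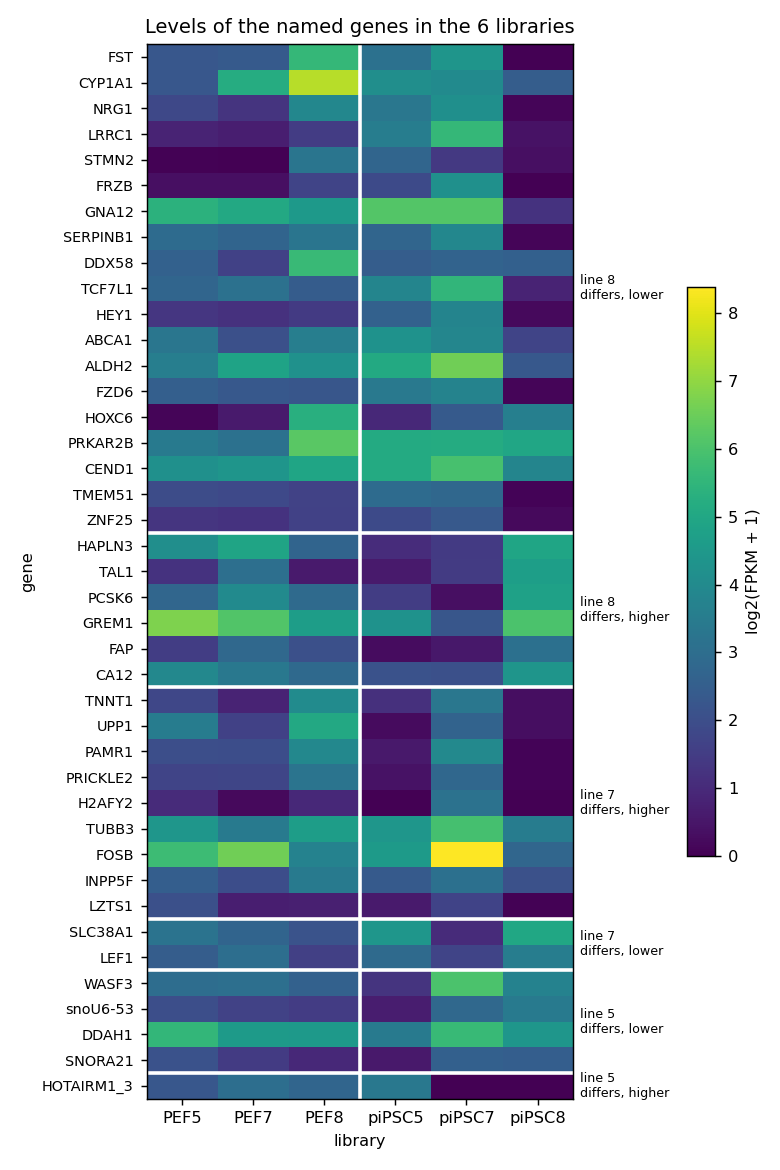
Levels as log2(FPKM + 1), shown by colour, of 41 named members (rows) in the 6 libraries (columns), grouped by the differing line and ordered by the width of the split. The column of piPSC8 is dark in most genes of the top block and bright in the block below it, and the column of piPSC7 is bright in the third.

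Short RNAs made up 15 members and rest on few fragments in these poly-A libraries. Among the 23 members with fewer than 10 fragments in the higher library of an opposed pair, 14 were short RNAs. HOTAIRM1_3, named after an antisense RNA of the HOXA cluster, stood at 3.87, 7.22 and 5.69 FPKM in the PEFs and 9.16, 0 and 0 FPKM in the piPSCs. These are 4, 7 and 5 fragments in the PEFs and 8, 0 and 0 in the piPSCs. With 3 fragments as the limit for a count of 0, its falls are only at least 1.66-fold in line 7 and 1.21-fold in line 8. Both limits lie below the 2-fold of the rule. The library kit as described does not mark the strand, so its fragments and those of overlapping genes cannot be told apart. The snoRNAs snoU6-53 and SNORA21 were lowest in piPSC5, at 3.06, 2.18 and 1.80 FPKM in the PEFs and 0.604, 6.12 and 9.91 FPKM in the piPSCs and at 3.30, 1.76 and 0.971 FPKM in the PEFs and 0.489, 4.95 and 4.67 FPKM in the piPSCs. Copies of such RNAs are near identical, and how the counting assigned them is not given in the sources used here.

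Members shared some annotations that the rule did not use. The counts cover annotated genes with a mean of at least 0.5 FPKM outside chromosomes X and Y. Of 122 members with a cellular component in the table, 34 (27.9%) were assigned to the plasma membrane, against 14.96% of 11030 annotated genes, and 14 (11.5%) to the extracellular space, against 4.42%. Of 107 with a biological process, 10 (9.35%) were assigned to signal transduction, against 3.91% of 10013, and 5 (4.67%) to the negative regulation of canonical Wnt signalling, against 0.879%. In contrast, 9 (8.41%) were assigned to DNA-templated transcription, against 12.9%. The terms given are a choice from the most frequent ones of each kind. They were read off after the members were known, and no test was made.

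By position, members lay on all 18 autosomes, from 2 genes on chromosome 17 to 18 on chromosome 1. The share of listed genes ran from 0.287% on chromosome 12 to 1.70% on chromosome 18, where 7 of 411 genes were members.

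The rule has a sharp edge. Just inside it lay LZTS1, with ratios of -1.46, 1.0003 and -0.70, and TMEM51, with ratios of 1.0006, 0.95 and -1.58. Just outside lay U2 and the phosphatase gene DUSP4, with ratios of 1.41, -0.9995 and -0.69 and 0.9992, 0.96 and -1.96. DUSP4 stood at 10.9, 8.97 and 9.41 FPKM in the PEFs and 22.8, 18.4 and 1.68 FPKM in the piPSCs, a shape much like that of the members that were lost in piPSC8.

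The scale of the libraries also matters near that edge. Between piPSCs and PEFs, the log2 fold change over the tested genes had a median of 0.20, and -0.01 once the libraries were rescaled to the median ratio over genes. With that rescaling, 118 of the 154 members still met the rule, and 139 genes did in all. Of the 41 named members, 29 met it under both rescalings tried. The other 12 were UPP1, HOTAIRM1_3, PRICKLE2, GNA12, DDAH1, FAP, INPP5F, DDX58, ZNF25, SERPINB1, LZTS1 and TMEM51, for which the smaller of the opposed changes fell below 2-fold.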

How the data were processed

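RNA of 3 PEF and 3 piPSC lines was analysed from a table of FPKM values per gene that the authors deposited, made by a sequencing company. The submitters' processing notes name Bowtie2 2.2.3, HISAT2 2.1.0, HTSeq 0.6.0 and Sscrofa11.1 without saying which step each served, and the annotation release is not given in the sources used here. Fragments per gene were recovered from the FPKM values, which are whole multiples of 1 fragment given the gene length and a total per library, for 100.0% of 18007 rows. Libraries held 11010629 to 17836510 fragments. Of 13234 symbols shared with the RefSeq annotation of Sscrofa11.1, 99.7% lay at overlapping positions, and upstream windows were read from that genome with samtools 1.23.1. Ontology terms are those in the table.

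The members and gene lists were chosen with earlier results of these data known. Named genes are the members with a symbol that had the 12 widest splits, the 4 widest strict splits of each differing line or the 8 highest mean levels, that belong to 1 of 45 gene lists (18 lists held 23 members), or that lie at the threshold with their 2 nearest neighbours on each side. Line, side and member counts are descriptions of 1 library per line and state.

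The comparison of piPSCs with PEFs used limma 3.58.1 in R 4.3.3 (lmFit, then eBayes with a trend) on log2(FPKM + 1), two-sided and unpaired, which the study states for its other assays, whereas it compared expression within each matched pair of lines. It covered the 12428 genes whose mean FPKM reached 0.5, and calls needed a 2-fold change and a Benjamini-Hochberg adjusted p under 0.05. Folds on this scale understate the change of low genes. The p-values measure the spread between 3 lines per group. Python 3.11.15, pandas 2.3.3, numpy 2.4.6, scipy 1.17.1 and matplotlib 3.10.9 were used for the rest. The recovery of fragments, the limma fit and the rule with its split into piPSC and PEF parts were tried on simulated data. The other steps were not.

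PEF and piPSC libraries of a number pair by design, as the piPSCs derive from those PEFs. As a check, the correlation of the libraries' deviations from their group mean was 0.0921, 0.0946 and 0.0800 within lines 5, 7 and 8 and -0.121 to 0.0553 across different lines. Alternatives were other pseudocounts, a filter on low values, a 4-fold threshold, both rescalings, a minimum of 10 fragments, the line as a replicate block and leaving out lines or libraries.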

Additional observations from a re-analysis of the deposited data

Results flagged for a closer look

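The opposite movement between lines is itself the result that stands out here. In 154 genes, the change from PEF to piPSC went at least 2-fold up in 1 line and at least 2-fold down in another. With 1 library per line and state, the difference between the lines was not tested. Groups of 3 libraries are too small to test for outlying values, so no library was examined in that way.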

How the results depend on the processing

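The number of members, 154, rose to 850 with a pseudocount of 0.1 (all 154 among them) and fell to 29 with a pseudocount of 5 and to 11 with a 4-fold threshold. Among these, the differing line was line 8 in 79.3% and 81.8% of genes, line 7 in 20.7% and 18.2%, and line 5 in 0% of both. With at least 10 fragments in the higher library of both opposed pairs, line 5 differed in 5.34% of the 131 members left, and 14 of the 23 genes removed were short RNAs. The number stayed within 1.5 times, at 131 to 151, with a filter on low values, with that minimum and with both rescalings, which kept 118 and 121 of the 154.

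Without line 8 there were 33 members, without line 7 there were 66 and without line 5 there were 121, and the share on the piPSC side ran from 76.9% without line 5 to 87.9% without line 7. With only 2 lines left, no differing line can be named. Of 287 recomputed spans of named members, 41 could not change, as they leave out the line with the middle ratio. Of the other 246, 185 moved by less than the SD of the 3 ratios. Members were chosen for ratios that lie far apart, so this SD is wide by choice. A span can change much and still stay within it, so the count does not show that the spans are stable.

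Limma called 4575 genes without and 4485 with a replicate block for the line, and 0 members in both fits. Leaving out 1 library gave 1 to 33 called members, with 33 without piPSC8, 12 without piPSC7, 3 without piPSC5, 2 without PEF7 and 1 without PEF5 or PEF8. Over all genes, 4542 of 12392 were called without piPSC8 and 4644 of 12330 without piPSC7. The members were chosen for opposed ratios, so leaving out a piPSC library of a differing line takes away spread that the choice put there. Nothing is read from these counts. The count of Notch genes called fell from 4 to 1 under the block and without PEF8, and to 2 without piPSC5, with no filter and with a minimum mean of 1 FPKM.

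The short RNAs and the genes near 0 in piPSC8 rest on few fragments. In piPSC8, 44 members had at most 3 fragments, against 27 in piPSC5 and 16 in piPSC7. The libraries piPSC5, piPSC7 and piPSC8 held 15050204, 11892011 and 11010629 fragments, and the part of depth was not tested. With 1 library per line and state, a member cannot be tested against the spread within its line.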

Other observations

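Some members were neighbours on the chromosome. Within 200 kb of each other lay 7 pairs, a distance chosen after the values were seen. HEY1 and STMN2, 86.7 kb apart on chromosome 4 with no listed gene between them, both had their lowest ratio in line 8. SERPINB1 and NQO2, 55.6 kb apart on chromosome 7, differed in lines 8 and 5. GNAZ and BCR, 34.0 kb apart on chromosome 14, were both lowest in piPSC8. NQO2, a quinone reductase, stood at 6.76, 10.3 and 3.93 FPKM in PEF5, PEF7 and PEF8 and at 16.6, 6.64 and 1.40 FPKM in piPSC5, piPSC7 and piPSC8.

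Several genes, named here after their values were seen, stood far higher in PEF8 than in PEF5 and PEF7. TGM2, a transglutaminase that crosslinks proteins, stood at 34.4 FPKM in PEF8 and at 0.902 and 0.247 FPKM in PEF5 and PEF7. Its level in piPSC8 was 3.41 FPKM, the highest of the piPSC libraries. TSPAN15, a tetraspanin, stood at 25.003 FPKM in PEF8 and at 1.47 and 1.67 FPKM in PEF5 and PEF7.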
